A study of Mus musculus with 9 samples.

Results

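The S100 genes encode small calcium-binding proteins, and 8 of them were followed here in pneumospheres, spheres that grow in suspension from dissociated embryonic mouse lung. The set was S100a1, S100a4, S100a6, S100a10, S100a11, S100a13, S100a16 and S100b, 8 of the 27179 gene IDs in the count table. S100a4 was selected on its count in these libraries, already known to be much higher late in culture, so its values are given as a description with no test. The other 7 were taken as its relatives and were tested. All 8 passed the filter on low counts and were among the 14940 genes tested.

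Pneumospheres were sampled on day 3, day 7 and day 10 of culture, with 3 libraries a day and 9 in all. Every culture came from lungs of C57/B6 embryos at E11.5, with no treatment and no genetic change given in the labels. After a short plating step that leaves attaching mesenchymal cells behind, the cells in suspension were grown in pneumosphere medium with bFGF at 20 ng/ml, EGF at 10 ng/ml and heparin on ultra-low attachment plates in 5% oxygen, and were split on days 3 and 7. The series asked which molecular changes occur during culture. The labels do not say how many embryos or cultures stand behind a library, so the p-values below measure only the spread between these samples. For day 10 they were not repeats of 1 RNA, since Xist, the RNA of the inactive X chromosome, had 515 and 589 CPM (scaled counts, defined below) in replicates 1 and 2 and 0.388 CPM in replicate 3.

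S100 proteins carry paired EF-hand motifs and mostly work as dimers. Calcium opens a surface on the dimer that binds target proteins such as annexins, myosin heavy chains and ion channels. S100A10 has lost calcium binding and pairs with annexin A2 at the plasma membrane. Several family members also leave the cell and act as ligands of the receptor RAGE, encoded by Ager, a gene used as a marker of alveolar type 1 cells in the mature lung.

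Of the 8 genes, 7 lie on chromosome 3 of the mouse assembly GRCm38.p6, the assembly that mm10 stands for, and S100b lies on chromosome 10. S100a1 (Entrez gene 20193, chr3:90511034-90514330, minus strand) and S100a13 (20196, chr3:90514233-90524581, plus strand) are arranged head to head, and their annotated spans share 98 bases. S100a16 (67860, chr3:90537254-90543151), S100a4 (20198, chr3:90603770-90606045) and S100a6 (20200, chr3:90612894-90614414) follow on the plus strand of the same cluster, with S100a5 between S100a4 and S100a6. S100a11 (20195, chr3:93520496-93526288) and S100a10 (20194, chr3:93555117-93564645) are neighbours on the same strand, 28.8 kb apart and about 3010 and 3044 kb from the S100a1 end of the cluster. S100b (20203) spans chr10:76253836-76261319 on the plus strand.

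Promoter windows of 250 bases before to 50 bases after the annotated start were taken from RefSeq (GRCm38.p6), which held windows for 7 of the 8 genes and 8 windows in all, since S100a16 has a pair of them. The 4 printed here belong to the pair with the largest log2 differences on day 10 against day 3 (S100a4 and S100a6), to the relative with the smallest rise that passed the test (S100a11), and to S100a13, whose window shares 204 bases with that of S100a1. Each runs 5′ to 3′ along the strand of its gene, the plus strand for all 4, and capitals mark the motifs searched for. The windows are chr3:90603520-90603819 for S100a4, chr3:90612644-90612943 for S100a6, chr3:93520246-93520545 for S100a11 and chr3:90514185-90514484 for S100a13.
S100a4: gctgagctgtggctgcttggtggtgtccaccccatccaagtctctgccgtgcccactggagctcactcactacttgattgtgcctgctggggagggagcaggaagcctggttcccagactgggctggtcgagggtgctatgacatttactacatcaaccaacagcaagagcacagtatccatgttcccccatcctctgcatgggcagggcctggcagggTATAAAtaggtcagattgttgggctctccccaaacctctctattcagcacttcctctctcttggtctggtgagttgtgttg
S100a6: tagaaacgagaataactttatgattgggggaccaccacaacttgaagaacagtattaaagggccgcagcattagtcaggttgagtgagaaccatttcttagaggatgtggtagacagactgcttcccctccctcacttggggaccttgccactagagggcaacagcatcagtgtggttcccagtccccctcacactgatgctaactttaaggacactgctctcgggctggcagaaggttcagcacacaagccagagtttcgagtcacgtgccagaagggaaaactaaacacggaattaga
S100a11: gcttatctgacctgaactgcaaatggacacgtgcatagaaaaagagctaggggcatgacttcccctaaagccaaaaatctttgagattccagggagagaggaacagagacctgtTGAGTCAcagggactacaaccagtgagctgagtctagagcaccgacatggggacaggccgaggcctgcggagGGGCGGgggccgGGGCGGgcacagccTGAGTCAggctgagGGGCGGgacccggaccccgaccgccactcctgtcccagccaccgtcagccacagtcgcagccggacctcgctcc
S100a13: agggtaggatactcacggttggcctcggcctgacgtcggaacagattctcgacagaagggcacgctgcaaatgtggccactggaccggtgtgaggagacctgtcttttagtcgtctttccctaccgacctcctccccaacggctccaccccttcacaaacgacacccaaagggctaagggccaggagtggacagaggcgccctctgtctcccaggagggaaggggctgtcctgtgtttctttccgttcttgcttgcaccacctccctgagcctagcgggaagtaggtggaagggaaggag

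The motifs were the TATA box TATAAA, the GC box GGGCGG, the AP-1-like pattern TGANTCA (N is any base) and the TEAD site GGAATG, searched on both strands. Over all 32851 windows of the same length, 13.6% held TATAAA, 35.7% GGGCGG, 7.8% TGANTCA and 14.7% GGAATG. S100a4 was the only one of the 7 genes with TATAAA in its window, at position -31 from the annotated start. S100a11 held GGGCGG at -64, -52 and -24 and TGANTCA at -136 and -38. The second window of S100a16 held GGGCGG at -30 and TGANTCA at -192, spelled TGAATCA there. The windows of S100a1, S100a6, S100a13 and S100b held none of the 4 motifs. No matches overlapped one another. These are letters in a window and say nothing about whether a factor binds there.

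**Figure D1:**
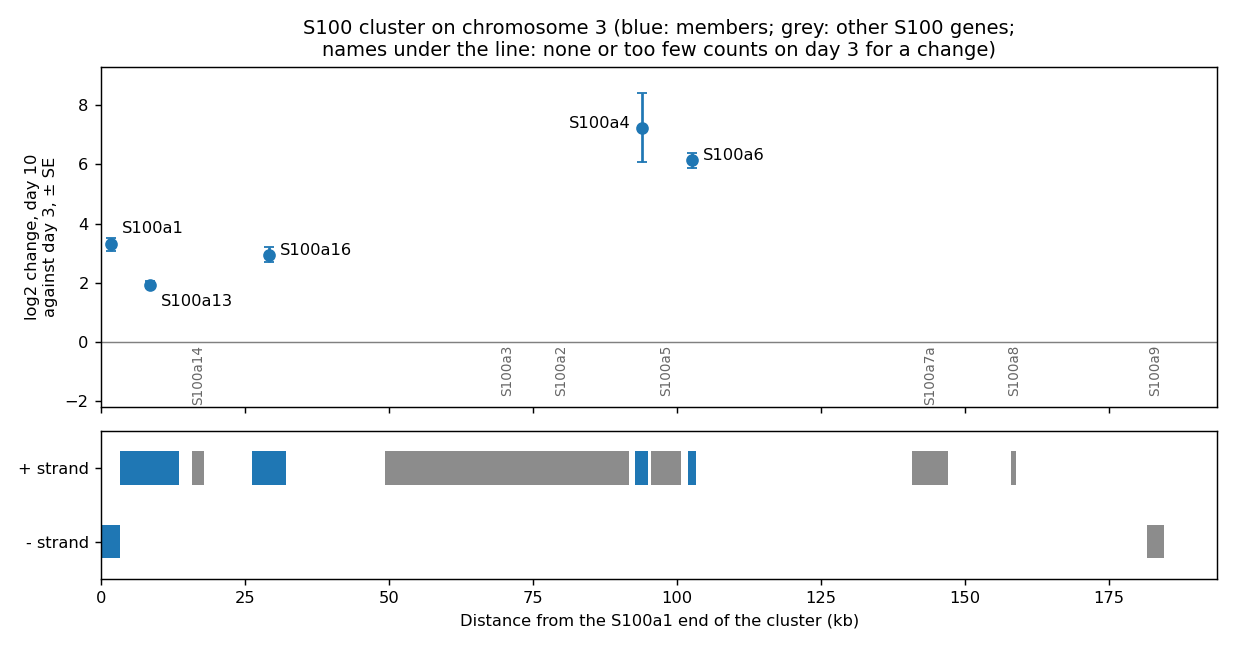
The S100 cluster of chromosome 3. The upper panel plots the log2 change on day 10 against day 3 (y axis, points with standard errors over 9 libraries) at each gene's distance in kb from the S100a1 end (x axis), and the lower panel draws gene spans by strand. S100a4 and S100a6, on either side of S100a5, lie at 7.24 and 6.14, above S100a1, S100a13 and S100a16 at 3.30, 1.93 and 2.95. Names under the zero line are other S100 genes, with no count or too few on day 3 for a change to be plotted. S100a7a is among them, with 1 count on day 3. Its ratio on day 10 against day 3 was 154 (95% exact interval 27.3 to 6140).

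The libraries held 20716878 to 30466712 counts, and 3 counts, the most that a count of 0 allows for, correspond to 0.0985 to 0.145 CPM. Levels are given as CPM, counts scaled to the library total with TMM factors, and a gene was called where edgeR's quasi-likelihood test over all 14940 genes gave a Benjamini-Hochberg adjusted p under 0.05. Although the plating step is described as an enrichment of lung epithelium, the defining markers of that tissue were absent or low, each under 1 CPM. Of 10 lung epithelial markers, Nkx2-1, Foxa1 and Shh were at 0 in all 9 libraries, and 1 had enough counts to test. That 1 was called lower on day 10 against day 3. The list summed to 0.971 to 1.63 CPM on day 3, 0.0390 to 0.617 CPM on day 7 and 0.106 to 0.248 CPM on day 10. The 9 mesenchymal markers summed to 14566 to 16309 CPM on day 3, 28126 to 33678 CPM on day 7 and 43152 to 48663 CPM on day 10, and all 9 were called higher on day 10 against day 3. The 7 mitosis genes summed to 1944 to 1996, 1066 to 1473 and 371 to 901 CPM on the same days, and all 7 were called lower on day 10 against day 3. The S100 genes other than S100b rose while the mesenchymal list rose and the mitosis list fell. The part that a changing mix of cells played in any result below was not tested. In bulk RNA, fewer cells of a type and less RNA per cell cannot be told apart.

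The summed level of the 7 relatives of S100a4 was 49.9 to 65.2 CPM in the day 3 libraries, 249 to 322 CPM in the day 7 libraries and 460 to 722 CPM in the day 10 libraries, and the days did not overlap. On day 10 against day 3, 6 of the 7 relatives rose and S100b was not called, with a median log2 change of 2.95 over the relatives and 0.0018 over all genes tested. Among all genes, 29.5% were called higher and 27.2% lower in that comparison. The libraries of the same 6 relatives did not overlap between day 10 and day 3, which held in the upward direction for 32.5% of all genes.

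**Figure D2:**
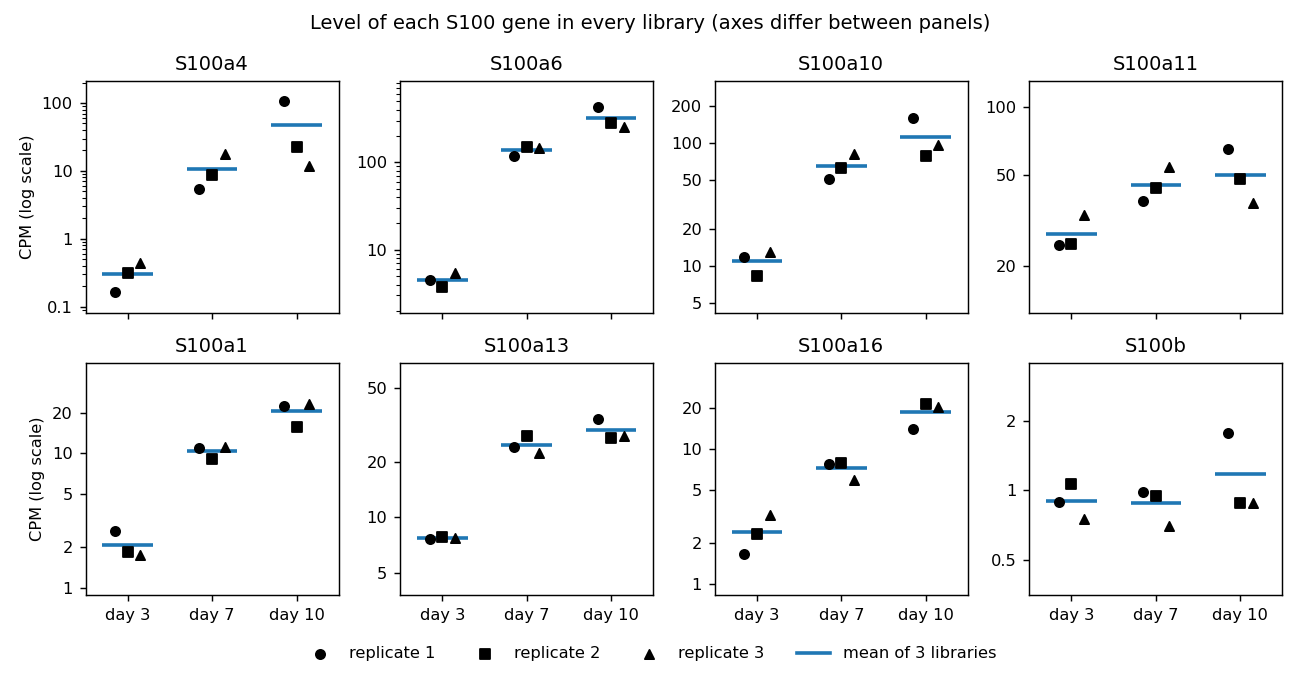
Level of each S100 gene in every library. Each panel gives TMM-normalised CPM on a log scale (y axis) by day of culture (x axis), with a symbol for each replicate and a line at the mean of 3 libraries. Day 3 libraries sit below day 7 libraries in every panel except S100b, and replicate 1 of day 10 is the highest point of S100a4 at 105 CPM.

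S100a4, also called fibroblast-specific protein 1 or metastasin, binds the heavy chain of non-muscle myosin IIA and is a common marker of fibroblasts and of some macrophages. It was close to the floor on day 3, with 4, 8 and 10 counts or 0.162, 0.316 and 0.441 CPM in replicates 1, 2 and 3. Day 7 libraries held 5.33, 8.68 and 17.4 CPM, and day 10 libraries held 105, 22.7 and 12 CPM. Every day 7 and day 10 library was thus above every day 3 library, but day 10 overlapped day 7, because replicate 3 of day 10 lay under replicate 3 of day 7.

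The fitted log2 change of S100a4 was 7.24 (SE 1.16) on day 10 against day 3, 5.09 (SE 1.19) on day 7 against day 3 and 2.15 (SE 0.77) on day 10 against day 7. Much of the last difference came from 1 library. Without replicate 1 of day 10 the log2 change was 5.82 on day 10 against day 3 and 0.73 on day 10 against day 7. Among 9792 genes with a day 10 mean of at least 10 CPM, 6 including S100a4 itself, or 0.0613%, had day 10 libraries at least as far apart as the 8.78-fold of S100a4. The other genes in that group, named after their values were seen, were Xist, H2-Ab1, Fosb, A2m and Fos. H2-Ab1, an MHC class II gene, had 36.7, 1.36 and 2.82 CPM in replicates 1, 2 and 3 of day 10, and the immediate-early genes Fosb and Fos had 136, 21.5 and 6.03 CPM and 232, 110 and 20.4 CPM. A2m, which encodes a protease inhibitor, ran the other way with 2.03, 6.88 and 44.3 CPM, and Xist, given above, set replicate 3 apart. Replicate 1 was thus the highest library for 3 of these 5 genes.

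Leukocytes can also express S100a4, so their markers were read beside it. The 10 leukocyte markers summed to 10.1 to 16.1 CPM on day 3, 5.72 to 15.1 CPM on day 7 and 5.68 to 7.94 CPM on day 10, and none of the 10 was at 0 in all libraries. Of the 7 that could be tested, Laptm5 was called lower on day 10 against day 3 and the others were not called. Replicate 1 of day 10, the library with the most S100a4, had 7.94 CPM of these markers, against 6.44 and 5.68 CPM in replicates 2 and 3. Behind these sums the single markers went both ways. Cd68, Csf1r, Fcer1g, Laptm5, Adgre1 and Ptprc were highest in replicate 1, Cd68 with 3.52, 1.72 and 2.15 CPM in replicates 1, 2 and 3. Lyz2, Cd14, Itgam and Tyrobp were highest in another replicate, Lyz2 with 0.694, 2.60 and 1.02 CPM. Whether leukocytes had a part in the S100a4 level of replicate 1 was not tested. In GENCODE M21 a further protein-coding gene model, Gm42674, shares 302 exon bases with S100a4 on the same strand, so reads in that stretch depend on the annotation used for counting.

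S100a6, or calcyclin, was the most abundant of the relatives late in culture and rose the most of them. It binds annexins and the calcyclin-binding protein, a part of ubiquitin ligase complexes. Its level was 4.45, 3.79 and 5.42 CPM in the day 3 libraries, 117, 152 and 147 CPM in the day 7 libraries and 426, 279 and 254 CPM in the day 10 libraries. The 3 days did not overlap one another. S100a6 rose by 6.14 on the log2 scale on day 10 against day 3 (SE 0.25, edgeR adjusted p = 2.22e-07), by 4.93 on day 7 against day 3 (SE 0.24, adjusted p = 1.4e-06) and by 1.21 on day 10 against day 7 (SE 0.20, adjusted p = 0.0104). S100a5, which lies between it and S100a4, had 22 counts over all 9 libraries together.

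S100a10 and S100a11 are further annexin-binding members: S100a10 forms a complex with annexin A2, and S100a11 binds annexin A1. S100a10 had 11.9, 8.24 and 12.8 CPM on day 3, 50.6, 62.1 and 81.1 CPM on day 7 and 158, 78.0 and 96.3 CPM on day 10. All day 7 and day 10 libraries were above all day 3 libraries, while days 10 and 7 overlapped. S100a10 rose by 3.34 on the log2 scale on day 10 against day 3 (SE 0.30, edgeR adjusted p = 1.88e-05) and by 2.56 on day 7 against day 3 (SE 0.30, adjusted p = 0.000161). On day 10 against day 7 its log2 change was 0.78 (SE 0.27, adjusted p = 0.109), and DESeq2 called that difference (adjusted p = 0.0265).

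S100a11 began as the most abundant of the 8 genes and changed the least of the 6 that rose. It had 24.8, 24.8 and 33.4 CPM on day 3, 38.4, 44.0 and 54.1 CPM on day 7 and 64.9, 47.9 and 37.7 CPM on day 10. Days 7 and 10 each lay above day 3, and overlapped one another widely. The log2 change was 0.86 on day 10 against day 3 (SE 0.21, edgeR adjusted p = 0.00663), 0.72 on day 7 against day 3 (SE 0.21, adjusted p = 0.0218) and 0.14 on day 10 against day 7 (SE 0.21, adjusted p = 0.732). The call on day 7 against day 3 ended without replicate 1 or 2 of day 3 or replicate 3 of day 7, with adjusted p between 0.0698 and 0.0747. A pseudogene with a count of its own, S100a11-ps, had 1 to 5 counts per library.

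S100a1 and S100a13, the head-to-head pair, both rose on day 10 against day 3, S100a1 by more. S100a1 is the family member of heart muscle, where it binds the ryanodine receptor, and S100a13 takes part in the release of Fgf1 and interleukin 1 alpha, which lack a signal peptide. S100a1 had 2.63, 1.85 and 1.76 CPM on day 3, 10.9, 9.14 and 11.1 CPM on day 7 and 22.7, 15.7 and 23.4 CPM on day 10. S100a13 had 7.61, 7.85 and 7.76 CPM on day 3, 23.9, 27.6 and 22.3 CPM on day 7 and 34.2, 27.1 and 27.6 CPM on day 10. The 3 days of S100a1 were fully apart, whereas days 7 and 10 of S100a13 lay above day 3 and overlapped each other.

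The log2 change of S100a1 was 3.30 on day 10 against day 3 (SE 0.21, edgeR adjusted p = 1.62e-06), 2.32 on day 7 against day 3 (SE 0.21, adjusted p = 2.58e-05) and 0.99 on day 10 against day 7 (SE 0.19, adjusted p = 0.0138). The last call ended without replicate 2 of day 7 (adjusted p = 0.0621). S100a13 rose by 1.93 on day 10 against day 3 (SE 0.12, adjusted p = 1.43e-06) and by 1.67 on day 7 against day 3 (SE 0.12, adjusted p = 7.66e-06), and differed by 0.27 on day 10 against day 7 (SE 0.11, adjusted p = 0.178). The strand setting of the counting is not given in the sources used here, so reads from the 98 bases both genes cover cannot be assigned to one of them. The 6 cardiac markers were read beside S100a1. They summed to 13.4 to 29.2 CPM on day 3 and 7.86 to 23.6 CPM on day 7. On day 10 their sums were 36.7, 4.84 and 8.26 CPM in replicates 1, 2 and 3. Replicate 1 of day 10 was also the library with the most S100a4. Whether cardiac cells had a part in that level was not tested. None of the 6 was at 0 in all libraries, and of the 4 tested Ryr2, a ryanodine receptor gene, was called lower on day 10 against day 3 (log2 change -1.29, adjusted p = 0.00753) and the other 3 were not called.

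S100a16, a widely expressed member of the family, rose in both steps of culture. It had 1.66, 2.37 and 3.26 CPM on day 3, 7.80, 7.90 and 5.93 CPM on day 7 and 14, 21.5 and 20.5 CPM on day 10. No library of a later day fell to the level of an earlier one. The log2 change was 2.95 on day 10 against day 3 (SE 0.26, edgeR adjusted p = 1.03e-05), 1.57 on day 7 against day 3 (SE 0.26, adjusted p = 0.000935) and 1.37 on day 10 against day 7 (SE 0.23, adjusted p = 0.0108). In replicate 1 of day 10, S100a16 was 0.665 times the mean of the other 2 libraries, while S100a4 was 6.07 times, S100b 2.03 times, S100a10 1.82 times, S100a6 1.60 times, S100a11 1.52 times, S100a13 1.25 times and S100a1 1.16 times that mean.

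S100b, a protein of glia and of chondrocytes, was the only relative that passed the test in no comparison. It had 0.890, 1.07 and 0.749 CPM on day 3, 0.987, 0.946 and 0.702 CPM on day 7 and 1.79, 0.881 and 0.882 CPM on day 10. All 3 days overlapped. The log2 change was 0.36 on day 10 against day 3 (SE 0.34, edgeR adjusted p = 0.381), -0.04 on day 7 against day 3 (SE 0.34, adjusted p = 0.942) and 0.40 on day 10 against day 7 (SE 0.34, adjusted p = 0.512). Markers of the cell types that carry S100b were read beside it. The 8 glial and neural crest markers summed to 94.6 to 116 CPM on day 3, 13.3 to 16.4 CPM on day 7 and 11 to 12.5 CPM on day 10, and 6 of them were called lower on day 10 against day 3. The 7 cartilage markers summed to 8.11 to 12, 10.0 to 13 and 7.36 to 11.8 CPM, with Snorc at 0 in all libraries and 1 of 3 tested, Col9a1, called lower on day 10 against day 3.

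On the log2 scale most of the rise came between day 3 and day 7. In that first step 6 of the 7 relatives rose, again all but S100b, beside 22.8% of all genes called higher and 19.0% lower, with medians of 1.67 over the relatives and 0.00027 over all genes. The day 7 libraries of these 6 lay wholly above those of day 3, as did those of 30.5% of all genes. In the second step, day 10 against day 7, S100a1, S100a6 and S100a16 rose and the other 4 relatives were not called, beside 4.41% of all genes called higher and 4.10% lower. These 3 were also the relatives whose day 10 libraries all lay above day 7, which held for 13.4% of all genes. The medians were 0.78 over the relatives and 0.0022 over all genes. Over all genes 659 were called higher and 612 lower in the second step, and 437 higher and 675 lower with library size alone as the scaling.

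The difference between the steps was tested in the same model, as the change from day 7 to day 10 minus the change from day 3 to day 7. The steps span 3 and 4 days, and the day 7 libraries enter both with opposite signs. The second step was smaller than the first for 4 of the 7 relatives, beside 5.96% of all genes called in that direction. The log2 difference was -3.73 for S100a6 (SE 0.34, edgeR adjusted p = 0.000418), -1.40 for S100a13 (SE 0.20, adjusted p = 0.00263), -1.33 for S100a1 (SE 0.33, adjusted p = 0.0356) and -1.78 for S100a10 (SE 0.46, adjusted p = 0.0477). The calls of S100a6 and S100a13 held in all 18 alternatives tried. That of S100a10 ended in 13 of the 18, and that of S100a1 in 5 fits without 1 library, with adjusted p up to 0.171 and 0.142. For S100a16 the difference was -0.20 (SE 0.41, adjusted p = 0.835), an estimate too wide to show that its steps were equal. S100a4 gave -2.93 (SE 1.69), with -4.36 without replicate 1 of day 10 and -1.77 without replicate 3 of day 7.

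**Figure D3:**
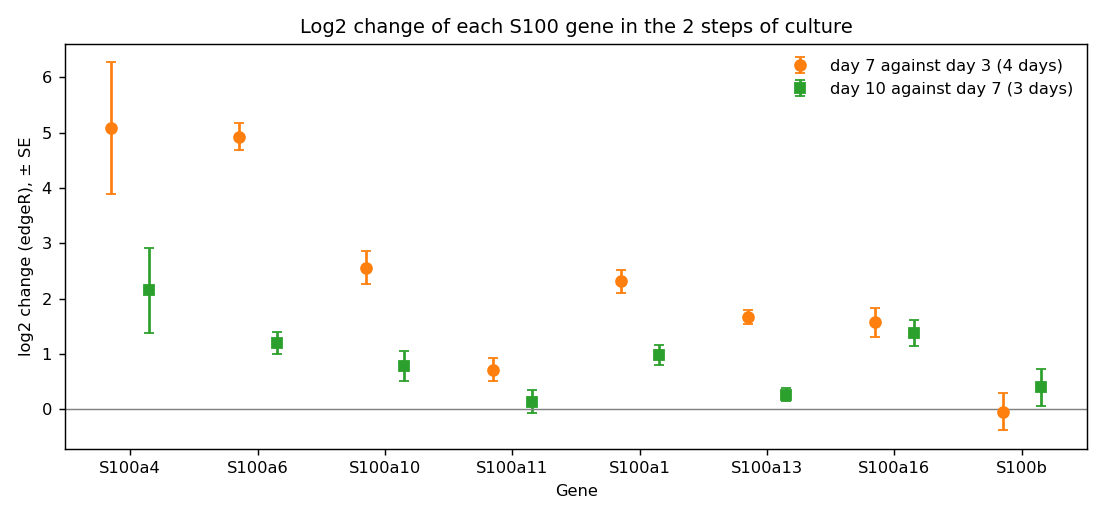
Log2 change of each S100 gene in the steps of culture. The y axis gives the edgeR log2 change with its standard error (9 libraries in the fit) and the x axis the gene, with circles for day 7 against day 3 and squares for day 10 against day 7. The circle lies well above the square for S100a6, at 4.93 against 1.21, while both lie close together for S100a16, at 1.57 and 1.37.

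Levels were compared between genes as CPM per kilobase of exon. On day 3 S100a11 led with 54.1 ± 9.78, followed by S100a10 with 16 ± 3.50, S100a13 with 10.8 ± 0.173, S100a6 with 6.23 ± 1.13, S100a1 with 3.08 ± 0.703, S100a16 with 2.16 ± 0.716, S100a4 with 0.615 ± 0.281 and S100b with 0.607 ± 0.107 CPM per kilobase (SD, n = 3). Libraries of neighbours in this order overlapped for S100a1 and S100a16 and for S100a4 and S100b, and were apart for the rest. On day 7 S100a6 led with 190 ± 26, ahead of S100a10 with 94.4 ± 22.5, S100a11 with 89.0 ± 15.6, S100a13 with 34.4 ± 3.76, S100a4 with 21.1 ± 12.6, S100a1 with 15.4 ± 1.62, S100a16 with 6.42 ± 0.987 and S100b with 0.592 ± 0.104 CPM per kilobase. S100a10 and S100a11 overlapped, as did S100a4 with both of its neighbours.

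On day 10 the leading gene was again S100a6 with 437 ± 127 CPM per kilobase. S100a10 with 162 ± 61.5, S100a11 with 98.2 ± 26.9, S100a4 with 93.7 ± 103 and S100a13 with 41.4 ± 5.54 CPM per kilobase followed, each overlapping its neighbour in this order. S100a1 with 30.4 ± 6.30, S100a16 with 16.6 ± 3.64 and S100b with 0.797 ± 0.352 CPM per kilobase came last, each apart from its neighbours. By its mean S100a6 held place 1 on day 10, against place 4 on day 3, and S100a4 held place 4 on day 10, against place 7 on day 3. Without replicate 1 of day 10 the S100a4 mean was 34.8 CPM per kilobase, under the 38.2 of S100a13, which put it in place 5.

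As shares of the summed level per kilobase of the 8 genes, S100a11 held 57.7% ± 2.74 on day 3, 19.7% ± 0.985 on day 7 and 11.4% ± 1.53 on day 10 (SD, n = 3). S100a6 held 6.63% ± 0.333, 42.2% ± 2.91 and 50.4% ± 3.38 on the same days. S100a10 stayed between 17.0% and 20.8% in the mean, and S100a4 held 0.647% ± 0.244, 4.48% ± 2.08 and 8.96% ± 7.07. The early S100 RNA was thus mostly that of S100a11 and the late S100 RNA mostly that of S100a6 and S100a10, although S100a11 itself rose in CPM.

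**Figure D4:**
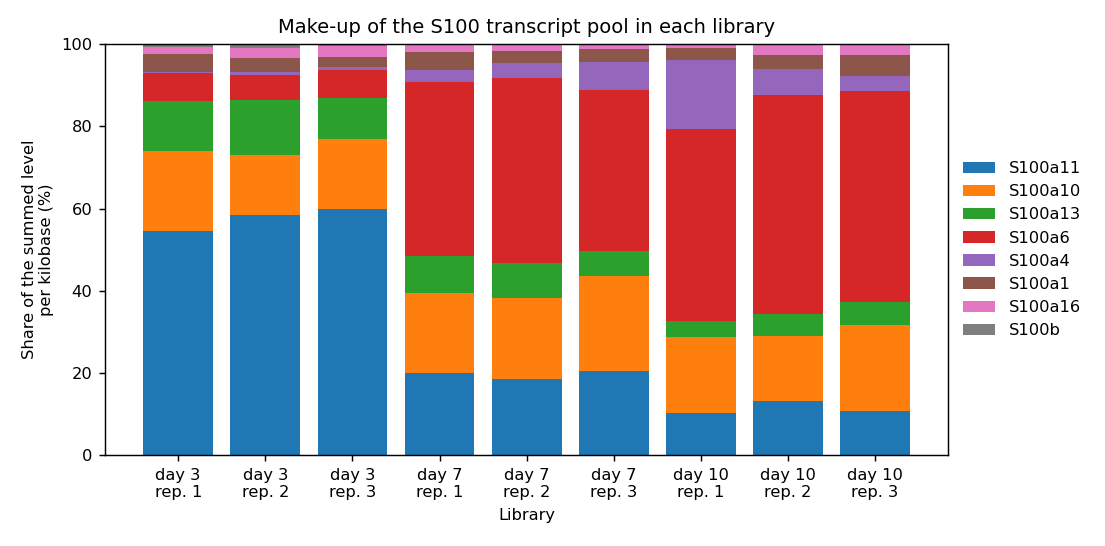
Make-up of the S100 RNA in each library. Each bar is 1 library (x axis, by day and replicate) and the coloured parts are the shares of the 8 genes in their summed CPM per kilobase (y axis, percent). S100a11 takes 57.7% in the mean on day 3 and 11.4% on day 10, S100a6 takes 6.63% on day 3 and 50.4% on day 10, and the S100a4 part is widest in replicate 1 of day 10 at 17.0%.

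Of the 10 other S100 genes examined, S100a7a alone had enough counts to test, and S100a2, S100a7l2, S100a9 and S100z were at 0 in all 9 libraries. S100a7a, the mouse relative of the human psoriasin genes of inflamed skin, had 1, 0 and 0 counts on day 3, 23, 11 and 21 counts on day 7 and 49, 54 and 53 counts on day 10. Because day 3 held a single count, its ratio there is given with a counting interval: 154 on day 10 against day 3 (95% exact interval 27.3 to 6140) and 49.8 on day 7 against day 3 (8.58 to 2000). On day 10 against day 7, where both days were counted well, S100a7a rose by 1.65 on the log2 scale (SE 0.32, edgeR adjusted p = 0.0146), a call that ended without replicate 2 of day 7 (adjusted p = 0.0657). S100a3, S100a5 and S100a14, also in the chromosome 3 cluster, had 23, 22 and 29 counts over all libraries. S100a8, a subunit of the neutrophil protein calprotectin, had 7 counts and S100g 1, and the partner of S100a8, S100a9, had none.

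Of 23 genes on the list of S100 binding partners, 22 were tested. On day 10 against day 3, 8 were called higher and 4 lower, with a list median of 0.03, beside 29.5% of all genes called higher and 27.2% lower. The 8 were Anxa1, Anxa2, Anxa5, Ahnak, Fgf1, Iqgap1, Myh9 and Ppfibp1. The 4, named after their values were seen, were Myh10, Cacybp, Trp53 and Syt1, of which Cacybp encodes the calcyclin-binding protein named above. On day 7 against day 3 the counts were 8 higher and 5 lower, beside 22.8% and 19.0% of all genes. On day 10 against day 7 they were 1 higher (Plat, which encodes tissue plasminogen activator, a protein that binds S100A10) and 2 lower (Myh10 and Syt1), beside 4.41% and 4.10% of all genes. The call of Plat ended in 11 alternatives and that of Syt1 in 4.

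Anxa1, which encodes annexin A1, had 2.10, 1.97 and 2.29 CPM on day 3, 38.2, 29.7 and 50.8 CPM on day 7 and 143, 43.7 and 61.7 CPM on day 10. It rose by 5.28 on the log2 scale on day 10 against day 3 (SE 0.49, edgeR adjusted p = 2.15e-05). Its day 10 library with the most RNA was replicate 1, as for S100a4, at 2.71 times the mean of the other 2. Ahnak, which encodes a giant scaffold protein that binds the complex of S100A10 and annexin A2, had 113, 121 and 114 CPM on day 3, 508, 469 and 526 CPM on day 7 and 748, 532 and 786 CPM on day 10, a rise of 2.57 (SE 0.14, adjusted p = 5.72e-07). Anxa2, which encodes annexin A2, had 249, 253 and 242 CPM on day 3, 412, 550 and 484 CPM on day 7 and 547, 505 and 451 CPM on day 10. It rose by 1.01 (SE 0.11, adjusted p = 4.23e-05), beside the 3.34 of S100a10.

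The heavy chains of non-muscle myosin went in opposite directions. Myh10 had 561, 560 and 556 CPM on day 3, 220, 289 and 285 CPM on day 7 and 151, 165 and 146 CPM on day 10, and fell by 1.86 on the log2 scale on day 10 against day 3 (SE 0.11, edgeR adjusted p = 8.86e-07). Myh9, the heavy chain that S100a4 binds best, averaged 984 CPM on day 10 and 605 CPM on day 3 and was among the 8 partners called higher. Fgf1, the growth factor released with S100a13, had 11, 12.1 and 15.2 CPM on day 3, 44.2, 47.7 and 62.0 CPM on day 7 and 106, 75.5 and 58.8 CPM on day 10, and rose by 2.64 on day 10 against day 3 (SE 0.23, adjusted p = 1.52e-05).

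Of 5 receptor genes on day 10 against day 3, Tlr4 and Bsg were called higher and Alcam lower, beside the same 29.5% and 27.2% of all genes. Tlr4, the innate receptor that S100A8 and S100A9 engage, had 3.28, 4.14 and 4.36 CPM on day 3, 12.3, 13.2 and 14.4 CPM on day 7 and 14, 17.7 and 22.2 CPM on day 10. It rose by 2.20 on the log2 scale (SE 0.19, edgeR adjusted p = 8.01e-06). Ager, the gene of RAGE, had 10.6, 11 and 11.8 CPM on day 3, 13.6, 9.18 and 12.7 CPM on day 7 and 13.1, 8.33 and 11 CPM on day 10, all overlapping, with a log2 change of -0.05 (SE 0.19, adjusted p = 0.848). Cd36, a scavenger receptor named after its values were seen, averaged 189 CPM on day 3, 378 CPM on day 7 and 164 CPM on day 10. It rose by 1.00 on the log2 scale on day 7 against day 3 (SE 0.08, adjusted p = 1.5e-05) and its change was -1.20 on day 10 against day 7 (SE 0.08, adjusted p = 0.000489). On day 10 against day 3 it was -0.20 (SE 0.08, adjusted p = 0.0517), called lower in 7 alternatives.

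**Figure D5:**
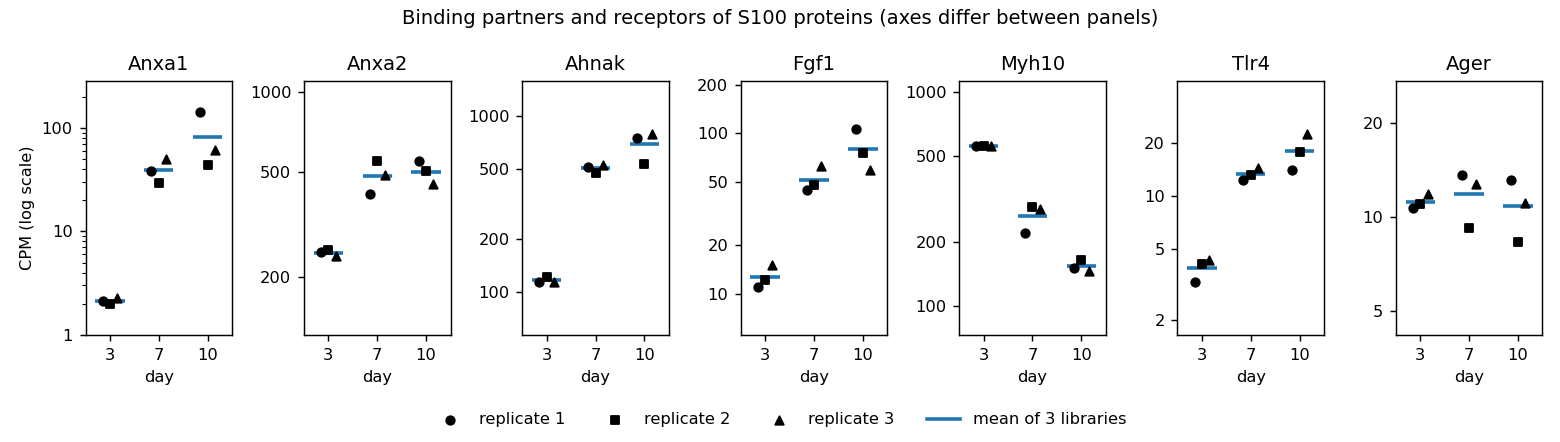
Levels of 7 binding partners and receptors in every library, as TMM-normalised CPM on a log scale (y axis) by day of culture (x axis), with a symbol for each replicate and a line at the mean of 3 libraries. Anxa1 lies between 43.7 and 143 CPM on day 10, against 1.97 to 2.29 CPM on day 3, Myh10 goes down over the days, and the Ager libraries of all days overlap.

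The genes whose levels followed S100a4 most closely were found by the Pearson correlation of log2 CPM over the 9 libraries among 10286 candidates, and are given as a description with no test. They were Fgf1 (r = 0.993), Syne3 (r = 0.990), Chpf2 (r = 0.990), Tle6 (r = 0.990) and F5 (r = 0.988). Fgf1 ranked all 9 libraries in the same order as S100a4, within days as well as between them. It stayed among the 5 closest in all 9 repeats that left out 1 library and with Spearman's rank correlation, whereas Syne3 and Chpf2 stayed in 5, Tle6 in 3 and F5 in 2 of the 9 repeats. Syne3 encodes nesprin-3 of the nuclear envelope, Chpf2 a chondroitin polymerising enzyme, Tle6 a corepressor of the Groucho family and F5 coagulation factor V. Among the S100 genes S100a10 was the closest, with r = 0.976 and place 33, then S100a6 with r = 0.966 and place 87. S100a13, S100a11, S100a1 and S100a16 took places 199, 287, 486 and 1357, and S100b, too low to be a candidate, had r = 0.408. The points share the day of culture, and S100a1 at place 486 still had r = 0.933.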

How the data were processed

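Poly(A) RNA of 9 pneumosphere libraries, 3 each from days 3, 7 and 10, had been sequenced from Illumina TruSeq RNA libraries, per the labels' protocols. The authors deposited 1 table of raw counts per Entrez gene ID, which per the submitters' processing notes come from featureCounts and build mm10. Not given in the sources used here were aligner, annotation, strand setting and the handling of reads with several positions, each of which can shift counts of overlapping genes. Of 27179 IDs, 25275 were named from RefSeq and 18 from GENCODE M21. Totals were 20716878 to 30466712 counts, and floors and intervals cover counting error only. Replicates of a day differed by more than counting noise (chi-square per degree of freedom 8.27 to 132), so all 9 libraries were kept as separate samples.

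Counts were filtered with filterByExpr (14940 genes), scaled by TMM and fitted by day over all 9 libraries with edgeR 4.0.16 in R 4.3.3 (robust quasi-likelihood F test, Benjamini-Hochberg over all genes, calls at 0.05, biological coefficient of variation 0.146). The code was tested on simulated data. CPM is TMM-normalised, log2 CPM for correlations used a prior count of 2, and lengths are exon unions of GENCODE M21 transcripts paired with a curated RefSeq mRNA. DESeq2 1.42.0, other scalings, filters, a replicate block, fits of 2 days alone and fits without single libraries were tried. The S100 genes and all lists were chosen with earlier results of these data known. The text names the 8 S100 genes, other S100 genes with at least 10 counts, up to 6 called partners or receptors with the largest change and at least 10 CPM (Anxa1, Anxa2, Ahnak and Ager always), and the 5 genes closest to S100a4. Further names are said to be chosen after their values were seen, or complete a count. The result of a single marker gene is not reported here.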

Additional observations from a re-analysis of the deposited data

How the results depend on the processing

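The counts of relatives called higher on day 10 against day 3 (6) were the same in every alternative, while those on day 7 against day 3 were 5 to 6 and those on day 10 against day 7 were 2 to 3 in fits without 1 library and 4 with DESeq2. The count whose second step was smaller than the first (4) was 2 to 4 in fits without 1 library. It was 2 without replicate 2 or 3 of day 3 or any single replicate of day 7, where S100a1 and S100a10 lost their calls. Leaving out replicate 2 of day 3 and replicate 3 of day 10 together, which stood apart in an earlier analysis, gave 6, 6 and 3. No member's called change reversed. The log2 change of S100a4 on day 10 against day 7 ran from 0.73 to 2.74 in fits without 1 library. No scaling moved the median log2 change of all genes by over 0.1. The background on day 10 against day 7 depended more on the method: 1070 higher and 1044 lower with DESeq2, 177 and 113 with these 2 days alone, and 144 to 756 and 160 to 792 in fits without 1 library, against 659 and 612 in the fit reported. For the difference between steps, DESeq2 called 530 higher, and fits without 1 library 114 to 521 higher and 438 to 1296 lower, against 308 and 891. Partner and receptor counts on day 10 against day 7 changed by a few genes, and receptors called lower on day 10 against day 3 were 2 in 7 alternatives. With the replicate number as a block the counts of relatives were 6, 6, 3 and 4, as without it. The S100a4 change on day 10 against day 7 was 1.73 with that block. Same-numbered libraries correlated at -0.07 to 0.43 in their deviations from the day means, and libraries of different numbers at -0.36 to 0.22. Not every library correlated best with its own number. These overlapping ranges do not settle whether the numbers pair the samples. The labels do not say so, and no pairing was assumed. S100b had no value under the filter of 1 CPM in 3 libraries. At 4 to 10 counts on day 3, the size of the S100a4 difference is limited by counting as well as by replicate spread.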
